A study of Mus musculus with 2 samples.

Results

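Granzymes and perforin are the killing proteins that cytotoxic lymphocytes store in granules and release onto a target cell. The 8 genes described here are Gzma, Gzmb, Gzmc, Gzmd, Gzme, Gzmf, Gzmk and Prf1. They were taken by gene symbol from the 27998 genes of the count tables. They were followed in CD8 T, CD4 T, Foxp3 T and NK cells of mouse melanomas.

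Perforin, the product of Prf1, forms pores in the membrane of the target, and granzymes are serine proteases that use it to reach the target's cytosol. Granzyme B cleaves after aspartate and can start the caspase cascade, whereas granzymes A and K cleave after basic residues. Granzymes C, D, E and F are rodent members of the family encoded next to Gzmb, and they are known from strongly activated killer cells. Regulatory T cells, marked by Foxp3, can also make granzyme B.

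The 2 libraries hold live CD45+ cells from B16F10 melanomas grown under the skin of C57BL/6 mice and taken on day 14. Each library is a pool of 4 tumors, 1 from control mice (Usp18f/f) and 1 from Usp18f/f LysM-Cre mice, which carry the same floxed Usp18 alleles. LysM-Cre is driven by the Lyz2 locus and acts in myeloid cells, so the lymphocytes described here are not the cells it targets. With 1 library per group there is no replicate, no test between groups, and no p-value. Every interval below is a 95% interval of counting error and says nothing about the spread between mice.

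The control library held 7754 barcodes and the other 6063, with totals of 43412346 and 48167632 UMIs (unique transcript molecules) and medians of 2600 and 4455, and 8 barcode sequences occurred in both. Lyz2 went with the labels in mononuclear phagocytes, at 8475 CPM (counts per 1000000 UMIs of the gate) in the control pool and 17.9 CPM in the other. Usp18 was higher in the other pool, at 20.8 CPM in the control pool and 96.9 CPM there. Counts per gene do not show whether the floxed alleles were deleted. The second pool is therefore called the pool labelled knockout, and every direction is read against that label. Cells with Xist and no Y-linked UMI made up 23.6% of control CD8 T cells and 74.3% in the pool labelled knockout, and 22.3% and 78.0% of NK cells. The part of this difference in the results was not tested, so values within cells of 1 kind stand beside the pooled ones. Lyz2 read between 64.9 and 195 CPM in the 4 control lymphocyte gates and at 0 UMIs in those of the other pool. Lyz2 was low in the phagocytes of that pool too, so its 0 UMIs there do not measure free myeloid RNA. Free myeloid RNA was not tested for its part in the results in either pool.

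Gates rest on transcripts alone. CD8 T cells (592 in the control pool and 393 in the pool labelled knockout) had a Cd3 UMI, a Cd8a or Cd8b1 UMI and none of Cd4 or Foxp3, and 98.0% and 97.5% of them had Ptprc, the gene of CD45. CD4 T cells (265 and 117) had Cd4 and neither Cd8 nor Foxp3, and Foxp3 T cells (123 and 100) had Foxp3 and no Cd8. NK cells (233 and 186) had an Ncr1 or Klrb1c UMI and no Cd3 UMI. B cells (1403 and 433), which should lack these genes, served as background. Barcodes with markers of more than 1 lineage were set aside. Among CD8 T cells Ncr1 and Klrb1c summed to 11.7 and 11.5 CPM. In NK cells 3 B-cell markers summed to 8.04 and 4.53 CPM, 3 phagocyte markers to 11.2 and 10.6 CPM, and 3 neutrophil markers to 0 and 1.51 CPM.

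Gzmb, Gzmc, Gzmd, Gzme and Gzmf form a cluster on the minus strand of mouse chromosome 14, from Gzme at chr14:56117626-56120625 to Gzmb at chr14:56258838-56262260 in GRCm38. Gzma (chr13:113093825-113100981) and Gzmk (chr13:113171608-113225908) lie near each other on chromosome 13, also on the minus strand. Prf1 lies on the plus strand at chr10:61297833-61304680. The 250 bases before the transcript start are shown for the chromosome 14 genes. The reason is that cells with Gzmc held most UMIs of Gzmd, Gzme and Gzmf. The sequences are RefSeq promoters of build GRCm38.p6, 5′ to 3′ on the gene's strand: chr14:56262335-56262584 for Gzmb, chr14:56234658-56234907 for Gzmc, chr14:56132594-56132843 for Gzmd, chr14:56120626-56120875 for Gzme and chr14:56211408-56211657 for Gzmf. Capitals mark the RUNX motif TGTGGT on either strand and the AP-1 motif TGANTCA.
Gzmb: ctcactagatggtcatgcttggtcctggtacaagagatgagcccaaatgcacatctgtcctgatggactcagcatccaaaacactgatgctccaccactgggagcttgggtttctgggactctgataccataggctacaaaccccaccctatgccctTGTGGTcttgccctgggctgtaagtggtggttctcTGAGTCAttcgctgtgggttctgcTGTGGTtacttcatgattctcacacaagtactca
Gzmc: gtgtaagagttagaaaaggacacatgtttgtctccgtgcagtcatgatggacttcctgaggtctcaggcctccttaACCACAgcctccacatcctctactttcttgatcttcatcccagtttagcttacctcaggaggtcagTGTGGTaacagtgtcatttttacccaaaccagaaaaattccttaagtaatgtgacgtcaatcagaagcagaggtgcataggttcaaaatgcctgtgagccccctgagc
Gzmd: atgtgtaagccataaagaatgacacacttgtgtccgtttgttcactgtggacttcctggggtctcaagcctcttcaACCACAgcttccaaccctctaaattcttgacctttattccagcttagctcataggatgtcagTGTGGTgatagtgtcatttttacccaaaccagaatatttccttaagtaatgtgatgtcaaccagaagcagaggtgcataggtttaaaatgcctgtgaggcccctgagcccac
Gzme: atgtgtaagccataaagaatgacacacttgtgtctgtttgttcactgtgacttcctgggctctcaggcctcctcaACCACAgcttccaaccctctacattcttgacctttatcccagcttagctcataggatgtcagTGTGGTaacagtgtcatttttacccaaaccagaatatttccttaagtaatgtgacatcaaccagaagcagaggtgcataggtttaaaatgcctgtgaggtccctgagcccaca
Gzmf: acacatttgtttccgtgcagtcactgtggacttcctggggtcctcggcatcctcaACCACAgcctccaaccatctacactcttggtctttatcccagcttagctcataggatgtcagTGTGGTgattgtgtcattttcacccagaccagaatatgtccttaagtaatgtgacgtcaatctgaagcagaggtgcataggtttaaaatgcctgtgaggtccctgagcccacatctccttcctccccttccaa

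Each of these 5 windows held 2 RUNX motifs. At least 1 was found in 14.0% of 32851 mouse promoter windows, and the share with 2 was not counted. The windows of Gzmc, Gzmd, Gzme and Gzmf are much alike, as given below, so their motifs are not separate observations. Gzma and Prf1 held 1 RUNX motif each and Gzmk held none. The Gzmk window, chr13:113180966-113181215, lies inside the gene span given above, so it precedes a different transcript start. The AP-1 motif was found in Gzmb alone of the 8 (6.75% of all promoters), and the T-box motif GGTGTG, searched on both strands and able to overlap TGTGGT, in Gzmk alone (16.3%). A match describes letters and is not a binding site. The windows of Gzmd and Gzme were 95.2% identical, and that of Gzmc was between 83.3% and 85.0% identical to those of Gzmd, Gzme and Gzmf. The likeness reaches the transcript ends that 3′ reads sample. The last 300 bases of Gzmd and Gzme were 95.4% identical and shared 52 of 271 runs of 30 bases, so a read could be shared between them or assigned to either. Counts of Gzmd, Gzme and Gzmf are uncertain among themselves for this reason. Gzmc shared no such run with them.

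The genes were divided unequally among the lymphocytes. Gzma was mostly in NK cells, which held 64.0% of all its UMIs in the control library and 70.6% in the other. Gzmk was mostly in CD8 T cells, with 71.1% and 55.4% of its UMIs. Gzmb was spread over all 4 gates, and Prf1 over NK and CD8 T cells. UMIs count molecules from their 3′ end, so levels do not scale with transcript length.

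**Figure D1:**
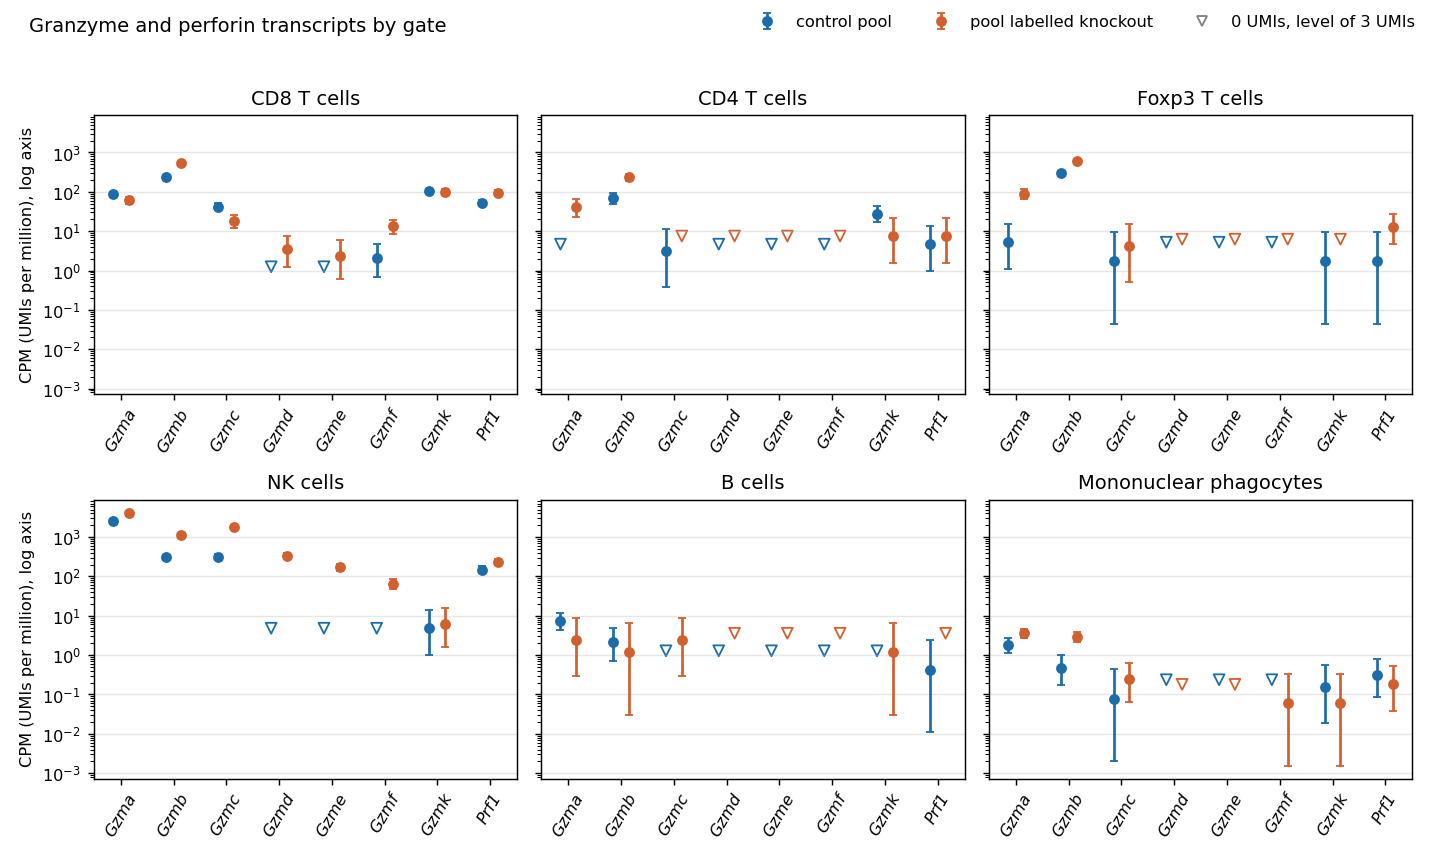
CPM of the 8 genes (log axis) in 6 gates of the control pool (blue) and the pool labelled knockout (orange). Bars are exact Poisson 95% intervals and open triangles mark 0 UMIs, drawn at the level of 3 UMIs. Gzma led in NK cells at 2618 and 4029 CPM, and B cells and phagocytes stayed under 10 CPM for every gene.

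In B cells Gzma was read in 0.428% and 0.462% of cells and Gzmb in 0.285% and 0.231%, at median depths of 1508 and 1766 UMIs. NK cells, at 2256 and 2741 UMIs, had Gzma in 68.2% and 69.4% and Gzmb in 25.8% and 44.6%. The NK shares lay far above the B-cell background in both libraries.

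In NK cells of the pool labelled knockout, Gzmb was 3.63-fold higher and Gzmc 5.66-fold higher than in the control pool, and Gzma and Prf1 were each 1.54-fold higher. Gzmd, Gzme and Gzmf were read there and not in control NK cells, almost wholly in 1 cell. Past 2-fold on CPM + 5 were Gzmb and Gzmc, each with UMIs in both pools, where 1.28% of all 6957 genes tested were past it in that direction and 2.79% in the other. Gzmd, Gzme and Gzmf were past it too, but they reached the minimum of 20 UMIs only through the pool labelled knockout, and Gzmk did not reach it. With barcodes of mixed lineage kept, the log2 ratio of Gzmc was 1.71 in place of 2.50.

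Granzyme B measured 310.2 CPM (268 to 357) in control NK cells and 1127 CPM (1047 to 1210) in the other pool. The ratio was 3.63 (3.10 to 4.28). It was carried by 60 of 233 and 83 of 186 cells, and at 1000 UMIs per cell the shares were 15.9% and 31.5%. The higher level thus came with more positive cells as well as more UMIs per positive cell, whose median was 1.5 and 3 UMIs. Within cells of 1 kind Gzmb was also higher. The log2 ratio was 1.51 (1.11 to 1.94) in cells with Xist and 1.35 (0.81 to 1.88) in cells with Y-linked UMIs, of which the pool labelled knockout had 17. In cells with Y-linked UMIs, 1 cell held 51 of the 92 control UMIs and 1 cell held 31 of the 46 in the other pool. That ratio therefore rests largely on 1 cell in each pool.

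Granzyme A measured 2618 CPM (2492 to 2748) in control NK cells and 4029 CPM (3877 to 4185) in the other pool, a ratio of 1.54 (1.45 to 1.64). The share of positive cells hardly differed, at 61.2% and 64.0% with 1000 UMIs per cell. The ratio varied with the sex-linked transcripts of the cells. NK cells with Xist stood at 3890 and 4045 CPM, a log2 ratio of 0.06 (-0.08 to 0.20). NK cells with Y-linked UMIs stood at 1598 and 1296 CPM, a log2 ratio of -0.30 (-0.66 to 0.04). The 77 and 23 NK cells with neither stood at 3539 CPM (3263 to 3833) and 7851 CPM (7025 to 8749). Only in this last kind did the levels stand apart by more than counting error.

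Perforin measured 149 CPM (121 to 183) and 229.5 CPM (194 to 269) in NK cells. The ratio was 1.54 (1.18 to 2.01), and 64 and 71 cells carried it. The log2 ratio was 0.37 (-0.31 to 1.12) in cells with Xist and 1.67 (0.93 to 2.38) in cells with Y-linked UMIs, where 18 of 28 UMIs came from 1 cell. Gzmk was read at 3 and 4 UMIs in NK cells, a ratio of 1.25 (0.212 to 8.55), and these cells had next to none of it in either pool.

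**Figure D2:**
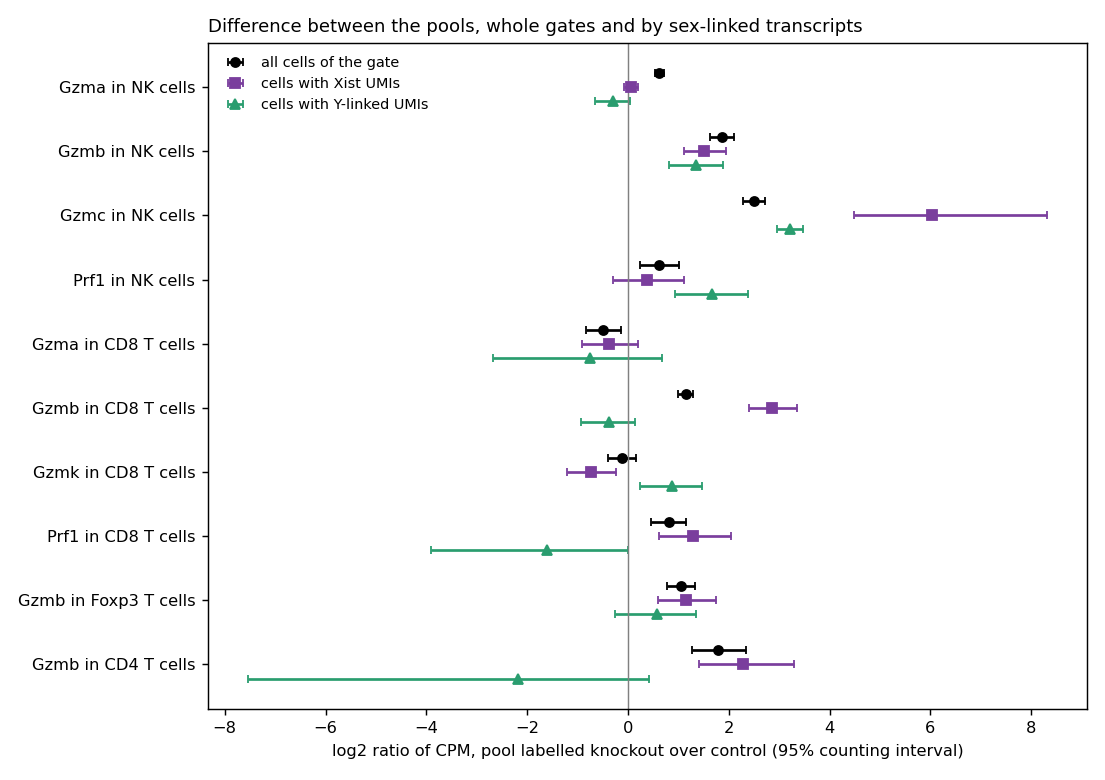
Log2 ratio of CPM, pool labelled knockout over control, with 95% counting intervals, for whole gates (black), cells with Xist and no Y-linked UMI (purple) and cells with Y-linked UMIs and no Xist (green). Gzmb in NK cells lies above 0 in all 3, Gzma in NK cells is at 0.06 and -0.30 within the 2 kinds, and Gzmb in CD8 T cells is on opposite sides of 0, at 2.86 and -0.37.

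Granzyme C measured 313 CPM (271 to 361) and 1773 CPM (1673 to 1877) in NK cells. The UMIs sat in 11 and 34 cells, and the top cell held 65.6% of the control UMIs and 28.6% of the others. Without the top 5 cells in each pool the levels were 13.4 and 563 CPM. The difference was therefore not that of 1 cell, and 3.08% and 13.5% of cells carried Gzmc at 1000 UMIs each. NK cells with Xist had 3 Gzmc UMIs in the control pool and 828 in the other, a log2 ratio of 6.04 (4.49 to 8.32). Those with Y-linked UMIs had 191 and 346, of which 336 were in 1 cell. Over all kept barcodes, and not NK cells alone, few cells held nearly all Gzmc. The 12 and 26 kept cells with at least 10 UMIs held 96.7% and 95.2% of it, and 3 and 17 of them were NK cells.

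Gzmc was more often read in control NK cells without Gzma than in those with it, and in the other pool the intervals of the shares overlapped. Gzmc was found in 2 of 159 control NK cells with Gzma and in 9 of 74 without it. In the pool labelled knockout it was found in 18 of 129 with Gzma (14.0%, 8.48 to 21.2) and in 16 of 57 without (28.1%, 17.0 to 41.5). Of its 17 NK cells with at least 10 Gzmc UMIs, 11 had Gzma. At 1000 UMIs per cell the counts were 0 of 139 against 7 of 88 and 11 of 114 against 13 of 64. Control NK cells without Gzma also had less Eomes, a T-box factor of mature NK cells, at 187 against 501 CPM in the control pool and 214 (158 to 284) against 285 (238 to 340) CPM in the other, where the intervals overlapped. Tbx21, the related T-box factor, did not follow Gzma, at 155 against 134 CPM and 129 against 110 CPM. Zeb2, another transcription factor, was lower without Gzma, at 114 against 347 CPM in the control pool. In the other pool it stood at 111 (72.1 to 164) against 169 (133 to 212) CPM, with intervals that overlapped. Serpinb9, an inhibitor of granzyme B, was lower too, at 137 against 276 CPM and 201 against 402 CPM. This split by Gzma was chosen after values were seen, and groups of cells from 1 library are not samples.

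**Figure D3:**
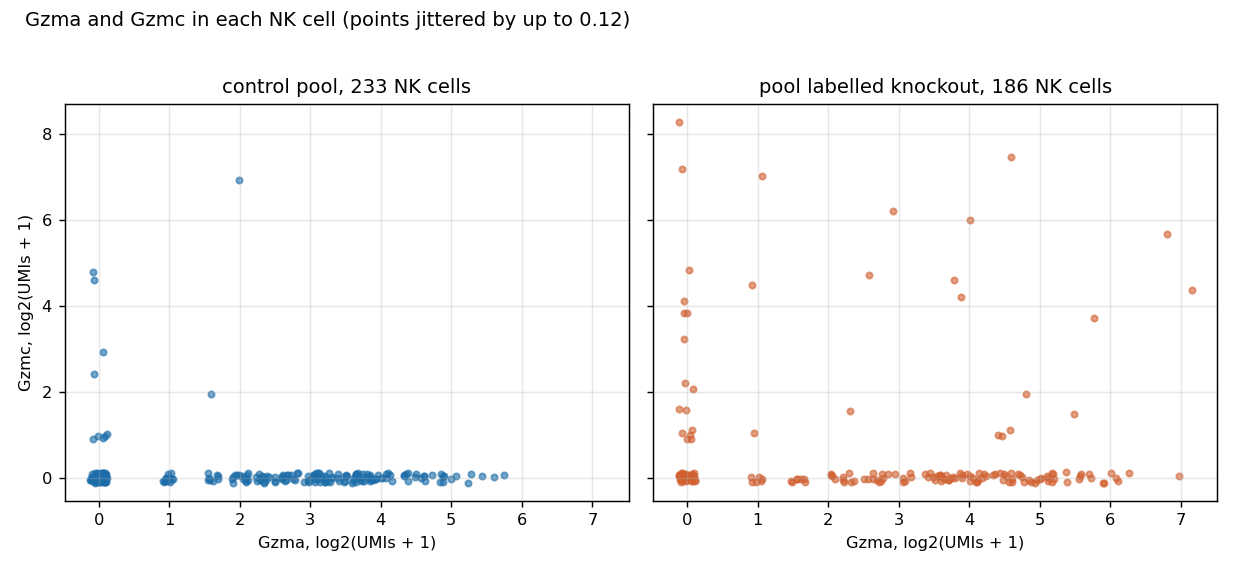
Gzma (x axis) and Gzmc (y axis) in each NK cell as log2(UMIs + 1), with a jitter of up to 0.12, for 233 control cells (left) and 186 cells of the pool labelled knockout (right). In the control panel 9 of the 11 cells with Gzmc have no Gzma, and in the other panel the 34 cells with Gzmc spread over both, 18 with and 16 without Gzma.

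Gzmb was read more often in NK cells with Gzma or perforin. Among NK cells with Gzmb, 88.3% and 88.0% also had Gzma, against 61.3% and 54.4% of those without. Prf1 was read in 46.7% and 54.2% of them, against 20.8% and 25.2%. At 1000 UMIs per cell the Prf1 shares were 27.8% and 35.7%, against 11.5% and 13.1%, so the order held at equal depth. At least 3 of the 8 genes were detected in 29 of 233 and 51 of 186 NK cells, and at equal depth in 4.41% and 14.0%.

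Granzymes D, E and F were read at 0 UMIs in control NK cells, which allows up to 4.82 CPM each. The other pool had 222, 113 and 43 UMIs, or 335, 171 and 64.9 CPM. These levels are at least 69.5-fold, 35.4-fold and 13.5-fold higher than 3 UMIs in the control gate. A single cell held 212 of the Gzmd UMIs, 112 of the Gzme UMIs and all 43 of Gzmf. That cell also had 336 Gzmc, 38 Gzmg, 31 Gzmb and 18 Prf1 UMIs, and no Gzma, among 16504 UMIs. Its granzymes and perforin made up 4.56% of all its transcripts.

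Over all kept barcodes, 4 control cells and 17 cells of the other pool had Gzmd, Gzme or Gzmf. Of these, 3 and 13 had Gzmc too, and cells with Gzmc held 95.2% and 99.4% of the UMIs of the trio. The trio was thus mostly read in cells with Gzmc, but a single cell in each pool held 71.4% and 54.2% of its UMIs. Whether the trio and Gzmc go together at equal depth was not tested. Most cells with Gzmc had none of the trio: 10.0% of 30 and 18.3% of 71 cells had some. A barcode left out for 31.7% mitochondrial UMIs also held Gzmc and the trio, with 122 Gzmc, 96 Gzmd, 43 Gzme and 33 Gzmf UMIs.

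**Figure D4:**
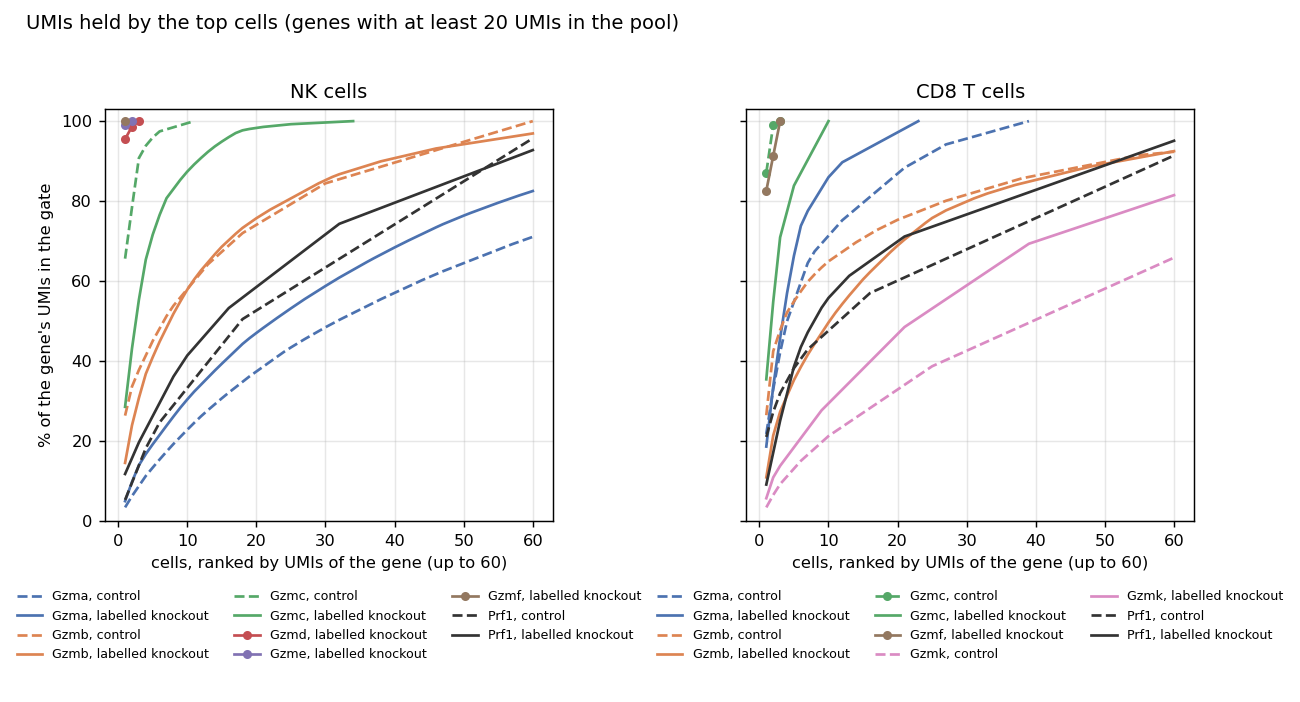
Cumulative share of a gene's UMIs in the gate (y axis, %) held by its top cells (x axis, up to 60 cells) in NK cells (left) and CD8 T cells (right), for genes with at least 20 UMIs, with the control pool dashed and the pool labelled knockout solid. Gzmd, Gzme and Gzmf reach at least 82.6% with 1 cell, whereas 50% of the UMIs take 40 and 23 cells for Gzmk in CD8 T cells and 32 and 23 cells for Gzma in NK cells.

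In CD8 T cells Gzmb was 2.21-fold higher and Prf1 1.75-fold higher in the pool labelled knockout, and Gzmk differed by less than its counting error. Of 6 genes tested, 2 were past 2-fold higher (Gzmb and Gzmf) and 1 past 2-fold lower (Gzmc), against 0.502% and 0.47% of 9355 genes. The calls for Gzmf and Gzmc rest on single cells. Gzmf had 5 and 23 UMIs, 19 of them in 1 cell, and its log2 ratio was 0.102 with a mitochondrial limit of 5%. Gzmc had 101 and 31 UMIs, but 88 of the 101 control UMIs came from 1 cell, and without the top cell of each pool its log2 ratio changed from -1.24 to 1.10. Gzmd and Gzme were at 0 UMIs in control CD8 T cells, which allows up to 1.25 CPM, and at 6 and 4 UMIs in the others.

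Granzyme B measured 245 CPM (226 to 266) in control CD8 T cells and 543 CPM (508 to 578) in the other pool, a ratio of 2.21 (1.99 to 2.46). Cells with a UMI numbered 105 of 592 and 109 of 393. At 1000 UMIs per cell they made up 7.81% (5.77 to 10.3) and 15.9% (12.4 to 19.98). The top cell held 26.5% of the control UMIs, and without the top 5 cells the levels were 118 and 368 CPM. With a mitochondrial limit of 5% the log2 ratio was 0.801, within 2-fold.

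The CPM ratio depended on which cells were compared. In cells with Xist Gzmb stood at 91.8 and 666 CPM, a log2 ratio of 2.86 (2.40 to 3.35). In cells with Y-linked UMIs it stood at 292 and 226 CPM, a log2 ratio of -0.37 (-0.93 to 0.15), with 33 such cells in the pool labelled knockout and 156 of the 379 control UMIs in 1 cell. The share of cells with Gzmb was higher in the pool labelled knockout within both kinds, at 14.3% and 27.1% with Xist and 19.6% and 30.3% with Y-linked UMIs. The interval of the last share was wide, 15.6% to 48.7%.

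Perforin in CD8 T cells measured 53.4 CPM (44.5 to 63.5) and 93.5 CPM (79.7 to 109), a ratio of 1.75 (1.38 to 2.23). The shares at 1000 UMIs per cell, 3.74% and 4.44%, overlapped in their intervals. In cells with Y-linked UMIs Prf1 stood at 62.3 and 20.6 CPM, the latter from 3 UMIs. Granzyme K measured 108 CPM (94.8 to 122) and 99.2 CPM (85.0 to 115), a ratio of 0.922 (0.756 to 1.12), in 142 and 92 cells. Its top cell held 3.49% and 5.78% of the UMIs, the lowest such shares in CD8 T cells. Granzyme A was 1.40-fold lower, at 85.9 and 61.4 CPM, with 54.9% and 66.4% of the UMIs in 5 cells.

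Gzmb was highest in CD8 T cells with Havcr2, which encodes Tim-3, an inhibitory receptor of chronically stimulated T cells. Gzmb stood at 698 and 1111 CPM in the 66 and 59 cells with Havcr2, and at 69.5 and 254 CPM in those without. Havcr2-positive cells were deeper, with medians of 7958 and 6704 UMIs against 2695 and 3075. At 1000 UMIs each, 31.8% and 50.8% of them had Gzmb, against 4.78% and 9.57%, so the order held at equal depth.

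Tcf7, which encodes the stem-like T-cell factor TCF-1, marked the opposite. Cells with Tcf7 had 25.7 and 54.5 CPM of Gzmb, and cells without it 405 and 913 CPM. Gzmk followed the same order less steeply, at 36.5 and 45.2 CPM against 159 and 140.2 CPM. Depth was nearly equal on both sides of this split, with medians of 2799 and 3235 UMIs against 2789 and 3461.

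Cells with UMIs of Mki67 or Top2a, which mark cycling cells, had 410.4 and 985 CPM of Gzmb against 146 and 246 CPM. Cells with Pdcd1, which encodes PD-1, had 523 and 980 CPM against 67.7 and 271 CPM. At 1000 UMIs each, Gzmb was read in 16.5% and 32.5% of the cycling cells against 5.70% and 11.6% of the others. It was read in 21.4% and 39.1% of cells with Pdcd1 against 4.10% and 9.12%. In each of these 8 classes of cells the CPM of Gzmb was higher in the pool labelled knockout. The classes are 4 splits of the same cells and not separate results. The split by sex-linked transcripts, given above, had 292 and 226 CPM in cells with Y-linked UMIs.

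**Figure D5:**
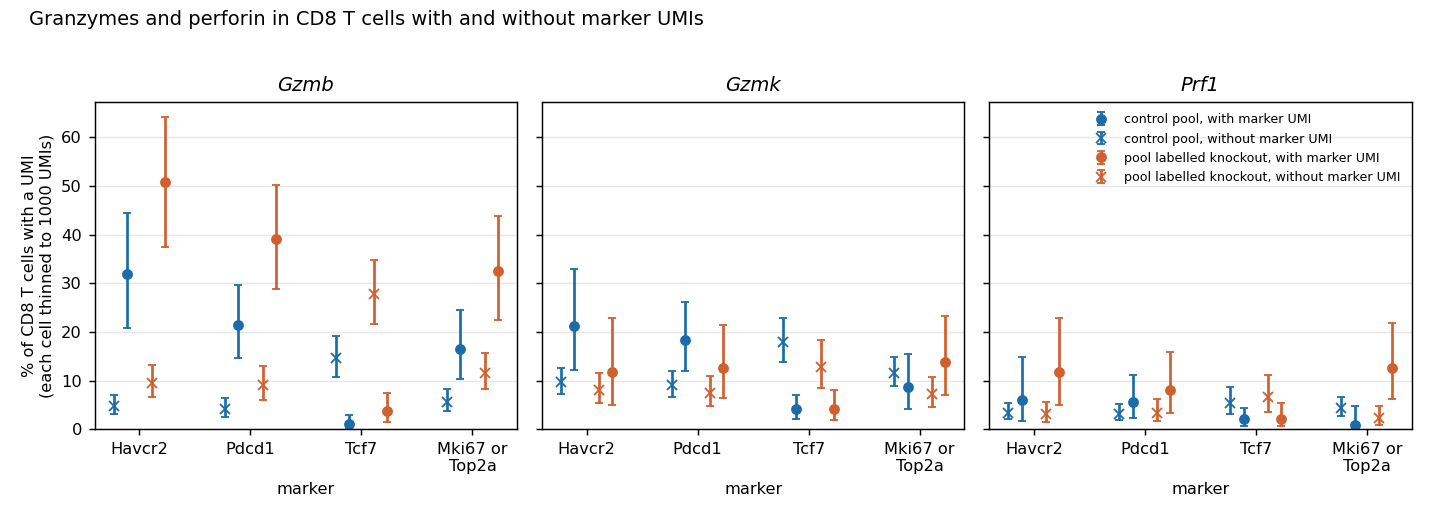
Share of CD8 T cells with a UMI of Gzmb, Gzmk or Prf1 after thinning to 1000 UMIs (y axis, %), with (circles) and without (crosses) a UMI of 4 markers, in the control pool (blue) and the pool labelled knockout (orange), with exact 95% intervals. Gzmb reaches 31.8% and 50.8% with Havcr2 and 1.02% and 3.70% with Tcf7.

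Co-detection in CD8 T cells paired Gzmb with Gzmk and Prf1 before thinning. Gzmk was read in 53.3% and 45.9% of cells with Gzmb and in 17.7% and 14.8% of those without. Prf1 was read in 27.6% and 40.4%, against 8.62% and 8.45%. Cells with Gzmb were deeper, with medians of 4139 and 4526 UMIs against 2704 and 3097. At 1000 UMIs the Gzmk shares were 23.9% and 8.20%, against 9.94% and 8.70%, and the Prf1 shares 2.17% and 11.5%, against 3.87% and 3.11%. Neither pairing was seen in both pools at equal depth.

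Foxp3 T cells had granzyme B almost without perforin. Gzmb stood at 293 CPM (250.1 to 341) and 607 CPM (539 to 681), a ratio of 2.07 (1.71 to 2.52), in 48 of 123 and 50 of 100 cells. These levels were of the order of those in CD8 T cells. Prf1 had 1 UMI in the control gate and 6 in the other, a ratio of 7.16 (0.869 to 329). At 1000 UMIs, 23.0% and 31.3% of Foxp3 T cells had Gzmb, with intervals that overlapped. The log2 ratio was 1.15 (0.60 to 1.74) in cells with Xist and 0.58 (-0.26 to 1.34) in the cells with Y-linked UMIs, 59 and 11 in number.

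In Foxp3 T cells Gzmb was past 2-fold higher, as were 2.94% of 6431 genes (3.37% were lower). With barcodes of mixed lineage kept and the highest doublet scores removed its log2 ratio was 0.665. Gzma was past 2-fold too, but it reached the minimum of 20 UMIs only through 1 cell. Gzma had 3 UMIs in the control gate and 43 in the other, 42 of them in 1 cell, a ratio of 17.1 (5.48 to 86.2), and without the top cell of each pool the log2 ratio was -0.739. The cell with 42 UMIs had both Xist and Y-linked UMIs. The NK markers Ncr1 and Klrb1c summed to 3.51 and 25.1 CPM in the Foxp3 T gates, 2 and 12 UMIs, and their part in this value was not tested. Gzmc was read at 1 and 2 UMIs, a ratio of 2.39 (0.124 to 141), and Gzmk at 1 and 0. Gzmd, Gzme and Gzmf were at 0 in both pools.

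Of the 4 gates, CD4 T cells had the lowest Gzmb in both pools. It stood at 68.8 CPM (49.98 to 92.3) in 13 of 265 control cells and at 238 CPM (193 to 291) in 22 of 117 others, a ratio of 3.47 (2.40 to 5.07). At 1000 UMIs per cell the shares were 2.31% (0.851 to 4.95) and 6.19% (2.53 to 12.3), which overlapped, and the log2 ratio of 0.939 (-0.15 to 2.01) was within 2-fold. The top cell held 20 of the 44 control UMIs. In cells with Y-linked UMIs there were 28 and 1 UMIs, in 78 and 11 cells, and in cells with Xist 12 and 86 UMIs, in 81 and 77 cells.

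Gzmk, at 18 and 3 UMIs in CD4 T cells, was 3.74-fold lower (ratio 0.268, 0.0505 to 0.916). As a mean over cells its log2 ratio was -0.633, against -1.90, which is within 2-fold. Of the 2 genes tested Gzmb was past 2-fold higher and Gzmk past 2-fold lower, against 3.39% and 2.88% of 6312 genes. Gzma had 0 UMIs in the control gate, which allows up to 4.69 CPM, and 16 in the other, at least 8.56-fold higher, with 13 in 1 cell. Prf1 had 3 UMIs in each pool, a ratio of 1.61 (0.215 to 11.99). Gzmd, Gzme and Gzmf were at 0 UMIs in both pools.

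Of 23 other genes of the granule pathway, those past 2-fold were read against the shares of all genes given above. In NK cells 1 of 20 tested was higher (all genes 1.28%), Gzmg of the chromosome 14 cluster, all 38 UMIs of which were in the cell described above. In CD8 T cells 0 of 21 were past 2-fold in either direction. In Foxp3 T cells 3 of 17 were higher (all genes 2.94%): Ctsw, which encodes a cathepsin of killer cells, at 14.0 and 67.0 CPM, Serpinb9 at 10.5 and 35.6 CPM, and the cytokine gene Tnf at 10.5 and 39.8 CPM. These rest on 8 and 32, 6 and 17, and 6 and 19 UMIs. In CD4 T cells 1 of 18 was lower (all genes 2.88%), the transcription factor gene Runx3 at 251.7 and 120.5 CPM.

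Among genes that pack and process granzymes, Srgn, the proteoglycan core of the granule, stood at 677 and 824 CPM in NK cells and 628 and 728 CPM in CD8 T cells. Cst7, an inhibitor of the cathepsins that activate granzymes, stood at 141 and 243 CPM in NK cells, a ratio of 1.72 (1.32 to 2.26). Serpinb9, the inhibitor that protects the killer from its own granzyme B, stood at 227 and 334 CPM in NK cells, a ratio of 1.47 (1.19 to 1.83). It stood at 65.9 and 91.2 CPM in CD8 T cells, a ratio of 1.38 (1.10 to 1.74). Ctsc, another processing gene, was lower in NK cells, a ratio of 0.765 (0.530 to 1.10). Of 5 genes of granule release, Lamp1 had a ratio of 0.757 (0.601 to 0.949) in CD8 T cells. Rab27a had 0.709 (0.538 to 0.928) there and Unc13d 0.654 (0.481 to 0.880). The intervals of Stx11 (0.811 to 1.76) and Stxbp2 (0.634 to 1.23) included no difference. In NK cells those of all 5 did.

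Of transcription factors known to control cytotoxic genes, none was past 2-fold in NK or CD8 T cells. In NK cells 0 of 5 (Eomes, Tbx21, Prdm1, Zeb2 and Runx3) had a log2 ratio above 0. Eomes was 1.49-fold lower, at 390.5 and 261 CPM, and Zeb2, a factor of mature killer cells, 1.77-fold lower, at 265 and 149.5 CPM. Prdm1 was 1.96-fold lower, at 56.2 and 28.7 CPM (ratio 0.510, 0.276 to 0.917), from 35 and 19 UMIs. The ratio intervals of Tbx21 (0.598 to 1.13) and Runx3 (0.700 to 1.01) included no difference, and the median log2 ratio over all genes in NK cells was -0.13. In CD8 T cells Tbx21 stood at 47.1 and 47.6 CPM, and 1 of 5 was above 0. In CD4 T and in Foxp3 T cells 2 of 4 were above 0. The median log2 ratio over all genes was -0.073 in CD8 T, -0.075 in CD4 T and -0.053 in Foxp3 T cells. The share of all genes above 0 was not counted. Ifng, the cytokine of the same cells, was 1.84-fold higher in CD8 T cells (159 and 292 CPM) and nearly equal in NK cells (112 and 112 CPM).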

How the data were processed

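Each pool gave 1 matrix of UMI counts. The authors deposited these counts unnormalized, made with Cell Ranger 3.0.1 and build mm10, per the submitters' processing notes. Barcodes needed 200 genes or more, and those above 10% mitochondrial UMIs were dropped. Gates used at least 1 Cd3 UMI for T cells, at least 1 Ncr1 or Klrb1c UMI for NK cells and at least 2 UMIs for other lineages (melanoma 5). Doublets were handled by setting barcodes with markers of 2 lineages aside. As an alternative, the top Scrublet scores (scanpy 1.11.5, 0.8% per 1000 barcodes) were removed, 481 and 294 barcodes.

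Counts were summed per gate and divided by the gate total per 1000000 UMIs. CPM carry exact Poisson intervals, shares exact Clopper-Pearson intervals, and ratios the exact interval of a binomial share. A count of 0 allows 3 UMIs. Thinning drew 1000 UMIs per cell and left out shallower cells, between 1 and 6 per control gate and between 1 and 10 in the other pool. All-gene ratios used CPM + 5 and genes with at least 20 UMIs in both pools together, with 2-fold as the limit. They were tried on simulated counts of the NK gate with counting noise alone. Changes were simulated only in well-counted genes, so changed genes near 20 UMIs, other gates and UMIs held by single cells were not tried. Coordinates are those of GENCODE M21 (GRCm38). Promoters were found for all 8 genes. With Gzmg, Gzmm and Gzmn added, the bases after the window had an exact match near the start of a GENCODE transcript for 7 of 11 genes. For Gzmb, Gzmc, Gzmk and Prf1 they had none. A missing match does not mean a distant start. The Gzmc window, on the minus strand, begins at 56234658, and the gene span ends at 56234656. The Prf1 window ends at 61297835, and the gene span starts at 61297833.

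All 8 genes are named, with 23 other pathway genes. Members and lists were chosen with earlier results of these data known. Python 3.11.15, scipy 1.17.1 and Biopython 1.88 were used. Sex-linked cells have Xist UMIs, or UMIs of Ddx3y, Uty, Eif2s3y or Kdm5d. Alternatives varied the filters, gates, pseudocount, thinning and top cells.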

Additional observations from a re-analysis of the deposited data

Results flagged for a closer look

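Gzma was higher in NK cells (log2 ratio 0.62) and in Foxp3 T cells (4.10) of the pool labelled knockout and lower in CD8 T cells (-0.485), each with a counting interval on its own side of 0. The Foxp3 value rests on 1 cell. The CD8 value turned to 0.151 with 1000 UMIs per cell.

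Gzmc was higher in NK cells (2.50) and lower in CD8 T cells (-1.24). The CD8 value rests on 1 control cell with 88 UMIs.

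Within CD8 T cells, Gzmk was lower in cells with Xist (-0.728) and higher in cells with Y-linked UMIs (0.876). Prf1 was higher in cells with Xist (1.3) and lower in cells with Y-linked UMIs (-1.6), the last from 3 UMIs in 33 cells. With 1 library per group none of these differences between gates or kinds of cell was tested.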

How the results depend on the processing

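No paired analysis was possible because each group has 1 library, numbered only by accession order. Values are log2 CPM ratios, pool labelled knockout over control, and the cause of each shift was not tested. A first set of 7 ratios held Gzmb in all 4 gates, Gzma and Prf1 in NK cells and Gzmk in CD8 T cells. In this set, 76 values under the alternatives moved by less than the counting interval, 22 moved further and 3 changed sign. Over 7 others, among them Gzmc in NK cells and Prf1 in CD8 T cells, the counts were 65, 16 and 6. A change of sign was counted only for ratios whose main interval excluded 0. The main interval of Gzmk in CD8 T cells, -0.403 to 0.167, included 0. Its highest alternative, 0.876, is therefore not among the 3. Genes with under 20 UMIs, or 0 in the control gate, gave no value.

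Limited to cells with Y-linked UMIs, Gzma in NK cells went from 0.622 to -0.302, Gzmb in CD8 T cells from 1.15 to -0.366 and in CD4 T cells from 1.79 to -2.18, and Prf1 in CD8 T cells from 0.809 to -1.6. Gzmb went from 1.05 to 0.583 in Foxp3 T cells and from 1.86 to 1.35 in NK cells, Prf1 in NK cells from 0.619 to 1.67 and Gzmk in CD8 T cells from -0.117 to 0.876. The pool labelled knockout has between 11 and 33 such cells per gate. Limited to cells with Xist, Gzma in NK cells was 0.0564, Gzmb 2.86 in CD8 T and 1.51 in NK cells, and Gzmk in CD8 T cells -0.728.

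With 1000 UMIs per cell Gzma in NK cells was 0.848, Gzmb 1.57 in CD8 T, 0.939 in CD4 T and 1.46 in NK cells, and Gzma in CD8 T cells 0.151, from -0.485. As a mean over cells, Gzmb in CD8 T cells was 1.62 and Gzma 0.0584. Without the top cell of each pool Gzmb was 1.42 in CD8 T and 2.39 in CD4 T cells, Gzma in Foxp3 T cells -0.739, from 4.10, and Gzmc in CD8 T cells 1.1, from -1.24. Without the top 5, Gzmb was 1.64 and 2.95. Gzmb in CD8 T cells was 0.801 with a mitochondrial limit of 5% and 1.41 without the highest Scrublet scores. With at least 2 marker UMIs Gzmb was 2.53 in CD4 T and 2.24 in NK cells. With mixed barcodes kept, Gzmc was 0.034 in CD8 T cells and 1.71, from 2.50, in NK cells. With mixed barcodes kept and the highest Scrublet scores removed, an alternative chosen after seeing the data, Gzmb in Foxp3 T cells was 0.665.

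Genes past 2-fold, higher and lower, numbered 47 and 44 in CD8 T, 214 and 182 in CD4 T, 189 and 217 in Foxp3 T and 89 and 194 in NK cells. With at least 100 UMIs they numbered 18 and 11, 27 and 12, 41 and 12, and 17 and 10. With a pseudocount of 1 CPM they numbered 89 and 162, 265 and 302, 241 and 296, and 147 and 328.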

Other observations

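Barcodes set aside for markers of more than 1 lineage held 10.3% of all Gzmb UMIs in the control library and 28.3% in the other, 149 and 1019 UMIs. Barcodes with markers of T cells and mononuclear phagocytes made up much of this, with 76 Gzmb UMIs in 11 of 120 control barcodes and 727 in 109 of 277 others. Their median depths were 10754 and 13193 UMIs. Barcodes with markers of T cells and migratory dendritic cells added 11 Gzmb UMIs in 3 of 16 control barcodes and 337 in 29 of 47 others. Such barcodes can hold more than 1 cell or free RNA, which cannot be told apart here. Gzmf in the pool labelled knockout was read mostly in mixed barcodes, with 172 UMIs, of which 3 barcodes held 99, 61 and 12.

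Over 22 points (11 gates in each of 2 libraries), the 3 of 11764 genes whose log2(CPM + 5) followed Gzma most closely by Pearson correlation were Klrc1 (0.93), Klre1 (0.92) and Klrb1c (0.92), the last a gene that defines the NK gate. For Gzmb they were Ctla2a (0.97), Il2rb (0.97) and Sh2d1a (0.96). For Gzmc they were Klra7 (0.96), Klra1 (0.96) and Klra9 (0.95), a family of similar receptor genes. For Gzmk they were Dapl1 (0.94), Hdgfrp3 (0.90) and Tdrp (0.89), and for Prf1 Klrc1 (0.97), Cd160 (0.97) and Dapk2 (0.97). Points of 1 library share its depth and free RNA.

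T-cell barcodes outside the 3 T gates held 570 and 555 Gzmc UMIs. A single control barcode held 556 of the 570, and 2 barcodes held 267 and 240 of the 555. The 3 barcodes had 3, 4 and 6 UMIs of Ncr1, an NK-cell receptor, beside at least 1 Cd3 UMI.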
